A study of Mus musculus with 12 samples.

Results

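ATP-binding cassette (ABC) transporters are membrane proteins that use ATP to carry lipids, bile salts, drugs, conjugates, porphyrins or peptides across a membrane. The family is divided by sequence into subfamilies A to G, and the members of subfamilies E and F are soluble proteins that act in translation and carry nothing. In the small intestine, exporters of the apical membrane return drugs and conjugates to the lumen, and peroxisomal and mitochondrial members serve fat oxidation and heme metabolism inside the enterocyte. Members were taken as every gene symbol made of Abc, a letter from a to g and a digit, without Abca1, Abcg5, Abcg8, Abcc2 and Abcc3. Of the 23284 genes of the deposited table, 50 matched the pattern, 45 were left after these 5 symbols, and 42 had at least 1 read. Abca15, Abca16 and Abcb5 had 0 reads in the 12 libraries.

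RNA of the terminal ileum was sequenced from 12 mice in 4 groups of 3. The groups were Rag1-/- mice, in which neither B nor T lymphocytes mature, Tcra-/- mice caged together with male wild type animals over 4 to 8 weeks (co-housed), Tcra-/- mice with Sep in their titles, taken as separately housed, and wild type C57BL/6 mice. Without the alpha chain of the T cell receptor, Tcra-/- mice have no alpha beta T cells of the usual kind and keep gamma delta T cells and B cells. All came from Taconic and lived in a specific pathogen free facility, and the labels give no ages, no deleted part of either gene, no number of cages and no housing of the Rag1-/- and wild type mice. Tests of housing thus rest on the spread among mice, and cage effects and housing cannot be told apart. Mouse numbers in the titles of the separately housed group have another form than in all other groups. What they stand for is not given, so a difference they may mark and housing cannot be told apart. The stated comparisons are Rag1-/- with wild type and co-housed with separately housed Tcra-/- mice, and their 4 groups share no mouse.

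Total counts ran from 37061276 to 50581616 per library. Rag1 itself had 69 to 92 reads in the mice labelled Rag1-/- and 0 reads in the other 9 libraries, and since the deleted part is not given, these reads do not check that label. Tcra has no row in the table, so the Tcra-/- label was not checked. Summed B cell markers were 5.95 to 8.06 CPM in Rag1-/- mice and 183 to 220.4 CPM in wild type mice, with 10 of 10 lower. Summed T cell markers were 15.6 to 17.6 CPM in Rag1-/- mice, 41.9 to 85.1 CPM in co-housed Tcra-/- mice, 19.6 to 20.6 CPM in separately housed Tcra-/- mice and 98.7 to 145 CPM in wild type mice. The tissue is bulk, so fewer cells of a type and less RNA per cell cannot be told apart. CPM are counts scaled to normalized library sizes, and a gene was called where the edgeR quasi-likelihood test gave a Benjamini-Hochberg adjusted p under 0.01 over all 15866 genes tested. Every adjusted p is from that test unless another is named, and n is 3 mice per group. A bracket with 3 values gives the log2 fold change, its standard error (SE) and the adjusted p. The SE is approximate, taken as the absolute log2 fold change divided by the square root of the test's F value.

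Upstream sequences are shown for 4 members that were called in both stated comparisons, of which Abca12 and Abcc5 fell and Abca13 and Abce1 rose. They are the ones among those called in both whose single RefSeq start lies at the same offset from the counted mm9 start as is commonest among genes nearby. Each line gives the 250 bases before the gene's start in RefSeq (GRCm38.p6), 5′ to 3′ on the gene's strand. Capitals mark matches, on either strand, to AGGTCA (the core motif of nuclear receptors), GGGCGG (the GC box), CACGTG (the E-box) and CCAAT. Of 32851 such windows in the RefSeq table, AGGTCA was found in 14.0%, GGGCGG in 32.7%, CACGTG in 6.02% and CCAAT in 33.8%.
Abca12 (chr1:71414911-71415160, minus strand): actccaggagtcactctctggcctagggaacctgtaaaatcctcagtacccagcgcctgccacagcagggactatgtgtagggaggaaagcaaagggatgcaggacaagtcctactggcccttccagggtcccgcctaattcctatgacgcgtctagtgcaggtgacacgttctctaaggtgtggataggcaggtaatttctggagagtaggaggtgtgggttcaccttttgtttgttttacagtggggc
Abcc5 (chr16:20426395-20426644, minus strand): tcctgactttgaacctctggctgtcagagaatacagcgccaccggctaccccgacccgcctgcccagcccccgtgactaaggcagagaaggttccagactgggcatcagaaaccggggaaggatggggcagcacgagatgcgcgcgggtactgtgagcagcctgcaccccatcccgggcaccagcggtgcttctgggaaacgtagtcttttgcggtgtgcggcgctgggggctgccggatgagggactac
Abca13 (chr11:9191692-9191941, plus strand): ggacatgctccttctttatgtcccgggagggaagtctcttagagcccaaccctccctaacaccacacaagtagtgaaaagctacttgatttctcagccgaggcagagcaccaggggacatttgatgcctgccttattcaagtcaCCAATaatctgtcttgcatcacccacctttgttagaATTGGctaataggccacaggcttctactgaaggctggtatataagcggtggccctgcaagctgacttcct
Abce1 (chr8:79711741-79711990, minus strand): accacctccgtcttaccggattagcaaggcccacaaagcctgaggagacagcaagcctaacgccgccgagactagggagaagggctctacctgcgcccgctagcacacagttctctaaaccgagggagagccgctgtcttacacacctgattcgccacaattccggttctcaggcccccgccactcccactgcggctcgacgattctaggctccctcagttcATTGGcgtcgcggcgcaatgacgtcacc
The windows of Abca12 and Abcc5 hold none of the 4 motifs, that of Abca13 holds 2 CCAAT matches, which do not overlap, and that of Abce1 holds 1 CCAAT match. A match describes letters and is not a bound site. The RefSeq table had a window for 31 of the 42 members.

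Levels, given per length as CPM per kilobase of merged exons, ran from 0.00521 for Abcc12 to 185 for Abcg2 as means over the 12 mice. Abcg2, the breast cancer resistance protein that exports urate and drugs at the apical membrane, was the most abundant member. Abcd3, a peroxisomal importer of long-chain and branched acyl-CoA, followed with 87.7, and Abcb1a, a P-glycoprotein that exports drugs, with 52.2 CPM per kilobase. Abcf1, a translation factor, had 33.2 CPM per kilobase. The hepatic bile salt pump Abcb11 had 0.0279 and the photoreceptor transporter Abca4 0.0233 CPM per kilobase. The 3 members with reads that fell under the count filter were Abca17, Abcb4, a phosphatidylcholine exporter of liver, and Abcc12. They had 17, 68 and 12 reads over the 12 libraries and were not tested, which leaves 39 tested members.

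**Figure D1:**
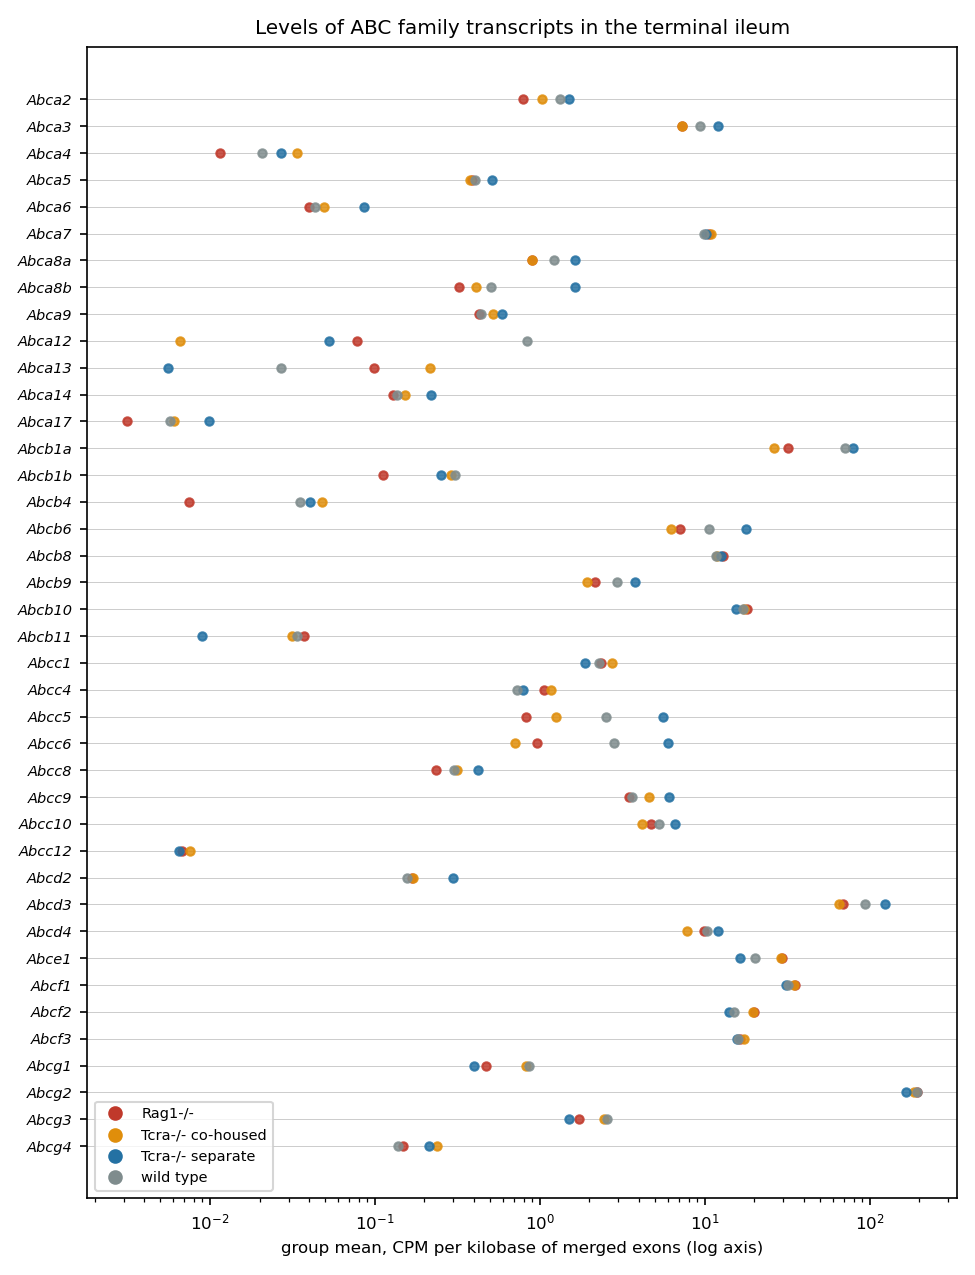
Group means of 40 members with reads, in CPM per kilobase of merged exons on a log axis, 1 row per gene and 1 point per group of 3 mice (a mean of 0 is not drawn). Abcg2 lies farthest right in every group, and the 4 points are widest apart for Abca12 and Abca13.

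Among the 39 tested members, 8 fell and 3 rose in Rag1-/- mice relative to wild type mice. That is 28.2% of tested members, where 20.9% of all genes tested were called (11.5% lower, 9.42% higher). In co-housed relative to separately housed Tcra-/- mice, 13 fell and 7 rose, or 51.3% of tested members against 38.8% of all genes (17.7% lower, 21.1% higher). The median log2 fold change of the tested members was -0.07 for Rag1-/- over wild type, beside -0.02 for all genes, and -0.18 for co-housed over separately housed, beside -0.01. Mice of the compared groups did not overlap for 18 of the 39 members for Rag1-/-, all 11 called ones included, beside 45.7% of all genes. For housing they did not overlap for 26 members, all 20 called ones included, beside 57.9% of all genes. Over the 28 members not called for Rag1-/-, log2 fold changes ran from -0.88 to 0.53, and over the 19 not called for housing from -0.80 to 1.76, with Abcb11, on 70 reads in all, at the top.

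Of the members called, 10 were called in both stated comparisons, in the same direction each time. These 10 are 90.9% of the 11 called for Rag1-/- and 50.0% of the 20 called for housing. Among all genes tested, 3314 were called for Rag1-/- and 6156 for housing. Of these, 970 fell in both, 1170 rose in both and 364 were called in opposite directions, so shared calls were common beyond the family. Abca2, Abca12, Abcb1a, Abcb6, Abcc5, Abcc6 and Abcd3 fell in both, as did 6.11% of all genes tested. Abca13, Abce1 and Abcf2 rose in both, as did 7.37% of all genes. No member was called in opposite directions, beside 2.29% of all genes, and among 39 members so small a share can give none. Over the 4 groups, 21 of 39 members differed by a test of any difference, beside 41.7% of all genes. Summed over the 42 members, the family's transcripts were 1768 ± 47.0 CPM in Rag1-/- mice, 1719.9 ± 63.6 CPM in co-housed Tcra-/- mice, 2196 ± 60.8 CPM in separately housed Tcra-/- mice and 2028 ± 72.0 CPM in wild type mice (mean ± SD, n = 3 each). Most of the differences between these sums lay in Abcb1a and Abcd3. Of -259 CPM for Rag1-/- minus wild type, Abcb1a made up -195 CPM, Abcd3 -85.6 CPM and the other 40 members together 21.3 CPM. For co-housed minus separately housed mice the difference was -476 CPM, with -264 CPM in Abcb1a, -197 CPM in Abcd3 and -15 CPM in the other 40 members. Scaling by library size alone shifted the median over all genes to -0.19 for Rag1-/- over wild type and to -0.12 for housing, and for Rag1-/- 13 members were then lower and 1 higher.

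**Figure D2:**
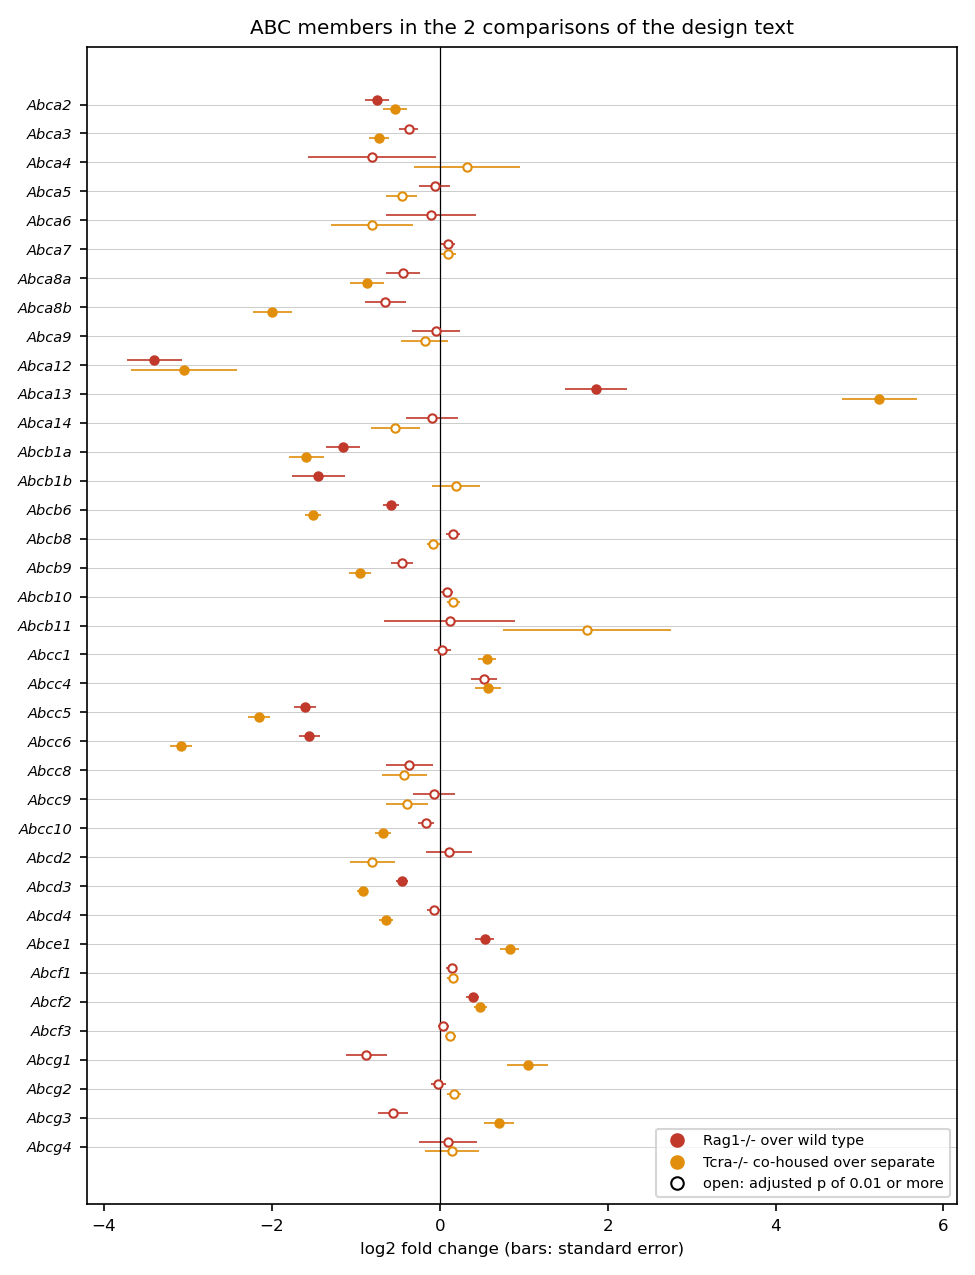
Log2 fold changes of 37 tested members with their standard errors, red for Rag1-/- over wild type and orange for co-housed over separately housed Tcra-/- mice, filled where the adjusted p was under 0.01. Abcc5, Abcc6 and Abcb6 lie left of 0 in both comparisons, and Abcg1 and Abcg3 lie on opposite sides.

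The multidrug resistance proteins of subfamily C, exporters of organic anions and conjugates, held the falls with the smallest adjusted p. Of 7 tested members, 2 fell and 0 rose in Rag1-/- mice, and 3 fell and 2 rose with housing. Abcc6 (mm9 chromosome 7, 53231750 to 53285656, minus strand), which promotes ATP release from cells and is best known from liver, had 4.51, 4.62 and 5.23 CPM in Rag1-/- mice, 3.34, 3.70 and 3.49 CPM in co-housed Tcra-/- mice, 26.9, 29.3 and 33.3 CPM in separately housed Tcra-/- mice and 13.4, 16.5 and 12.3 CPM in wild type mice. Each separately housed mouse was above every wild type mouse, and each wild type mouse above every mouse of the other 2 groups. Abcc6 fell 2.94-fold in Rag1-/- relative to wild type mice (log2 fold change -1.55, SE 0.13, adjusted p = 1.8e-07) and 8.47-fold in co-housed relative to separately housed mice (-3.08, SE 0.13, adjusted p = 2.7e-10). Abcc5 (mm9 chromosome 16, 20331377 to 20426467, minus strand), an exporter of cyclic nucleotides and glutamate conjugates, had 4.48, 5.40 and 5.46 CPM in Rag1-/- mice, 6.17, 8.73 and 8.37 CPM in co-housed Tcra-/- mice, 32.9, 31.9 and 39.0 CPM in separately housed Tcra-/- mice and 15, 16 and 15.8 CPM in wild type mice. Its groups did not overlap in either stated comparison, with falls of 3.05-fold in Rag1-/- relative to wild type mice (-1.61, SE 0.13, adjusted p = 1.9e-07) and 4.45-fold in co-housed relative to separately housed mice (-2.15, SE 0.13, adjusted p = 3.7e-09).

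Other members of subfamily C moved less or the other way. Abcc10, a drug exporter of the same group, had 25.0, 29.5 and 26.6 CPM in Rag1-/- mice, 23.4, 21.7 and 26.0 CPM in co-housed Tcra-/- mice, 35.5, 36.1 and 41.8 CPM in separately housed Tcra-/- mice and 30.4, 32.1 and 28.2 CPM in wild type mice, and it fell with housing (-0.67, SE 0.09, adjusted p = 2.1e-05) while Rag1-/- and wild type mice overlapped (-0.16, SE 0.09, adjusted p = 0.219). Abcc1, the exporter of glutathione conjugates in most tissues, rose with housing to 16.4 ± 0.411 CPM, against 11.1 ± 0.996 CPM in separately housed mice (0.56, SE 0.11, adjusted p = 0.000407). Abcc4, an exporter of cyclic nucleotides and prostaglandins, rose with housing to 6.91 ± 1.45 CPM, against 4.65 ± 0.531 CPM in separately housed mice (0.57, SE 0.16, adjusted p = 0.00624). That call of Abcc4 ended without mouse TCRaCox3157 (adjusted p = 0.0416), TCRaSepxT2 (0.0194) or TCRaSepxT4 (0.0326), with library size alone (0.0272) and when only the 6 libraries compared were fitted (0.0203). In Rag1-/- mice Abcc4 was at 0.53 and not called (adjusted p = 0.0175, and 0.00421 by DESeq2). The sulfonylurea receptors Abcc8 and Abcc9, channel subunits and not pumps, were called in neither stated comparison. Abcc9 and Abcc10 share 158 and 42 exon bases with genes on the opposite strand, and the strand setting of the counting is not stated in the sources read. Abcc8 and Abcc9 were at -0.36 and -0.07 for Rag1-/- and at -0.42 and -0.39 for housing.

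In subfamily B, 3 of 8 tested members fell in each stated comparison and none rose: Abcb1a and Abcb6 in both, the second P-glycoprotein Abcb1b in Rag1-/- mice and Abcb9 with housing. Abcb1a had 107, 169 and 202 CPM in Rag1-/- mice, 156, 134 and 104 CPM in co-housed Tcra-/- mice, 382, 408 and 396 CPM in separately housed Tcra-/- mice and 373, 347 and 342 CPM in wild type mice. All 6 Rag1-/- and co-housed mice lay under all 6 separately housed and wild type mice, and mouse RAG1x3163 was the lowest of its group. Abcb1a fell 2.23-fold in Rag1-/- relative to wild type mice (-1.15, SE 0.21, adjusted p = 0.00163), with adjusted p = 0.0170 and so no call when only those 6 libraries were fitted. It fell 3.01-fold in co-housed relative to separately housed mice (-1.59, SE 0.21, adjusted p = 9.9e-05). Its tandem paralog Abcb1b had 0.465, 0.521 and 0.470 CPM in Rag1-/- mice, 1.26, 1.39 and 1.11 CPM in co-housed Tcra-/- mice, 1.03, 0.885 and 1.38 CPM in separately housed Tcra-/- mice and 1.30, 0.839 and 1.83 CPM in wild type mice, far less than Abcb1a in every mouse. Abcb1b took 0.800 to 1.06% of the reads of both genes in co-housed mice and 0.216 to 0.533% in the other 3 groups. Abcb1b fell in Rag1-/- mice (-1.44, SE 0.31, adjusted p = 0.00197), was no longer called when mouse WTB6x3167 was left out (adjusted p = 0.0141), and was at 0.19 for housing (adjusted p = 0.604). The difference between these effects of Abcb1b did not pass (-1.64, SE 0.42, adjusted p = 0.0113). How reads that match both paralogs were treated is not stated in the sources read, so the split between them is uncertain.

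Abcb6 (mm9 chromosome 1, 75168215 to 75176857, minus strand), a porphyrin transporter of mitochondria and endosomes, had 21.1, 22.3 and 19.2 CPM in Rag1-/- mice, 18.6, 18.3 and 18.3 CPM in co-housed Tcra-/- mice, 45.0, 55.4 and 57.0 CPM in separately housed Tcra-/- mice and 32.3, 32.1 and 29.2 CPM in wild type mice. The separately housed mice were the highest and did not overlap with wild type mice, which in turn lay above the 2 remaining groups. Abcb6 fell 1.5-fold in Rag1-/- relative to wild type mice (-0.58, SE 0.09, adjusted p = 0.000147) and 2.85-fold in co-housed relative to separately housed mice (-1.51, SE 0.09, adjusted p = 4.7e-09). Abcb9, a peptide transporter of lysosomes, had 7.86, 6.71 and 7.09 CPM in Rag1-/- mice, 5.74, 6.49 and 7.23 CPM in co-housed Tcra-/- mice, 12.3, 13.3 and 12 CPM in separately housed Tcra-/- mice and 10.9, 10.4 and 8.30 CPM in wild type mice. It fell with housing (-0.95, SE 0.13, adjusted p = 1.8e-05), while for Rag1-/- it was at -0.45 (adjusted p = 0.0146, and 0.00473 by DESeq2). The mitochondrial members Abcb8 and Abcb10, which serves heme synthesis, were called in neither stated comparison, with log2 fold changes of 0.16 and 0.09 for Rag1-/- and -0.08 and 0.16 for housing. On a list of 17 heme and iron-sulfur genes, 1 higher and 1 lower of 17 were called for Rag1-/- and 4 higher and 2 lower of 17 for housing. Of all genes tested, 20.9% were called for Rag1-/- and 38.8% for housing, so the list held no excess of calls. The mitochondrial iron importer Slc25a37 was lower in both (-0.90 and -1.56), and Alas1, the rate-limiting enzyme of heme synthesis, higher in both (0.59 and 0.93).

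**Figure D3:**
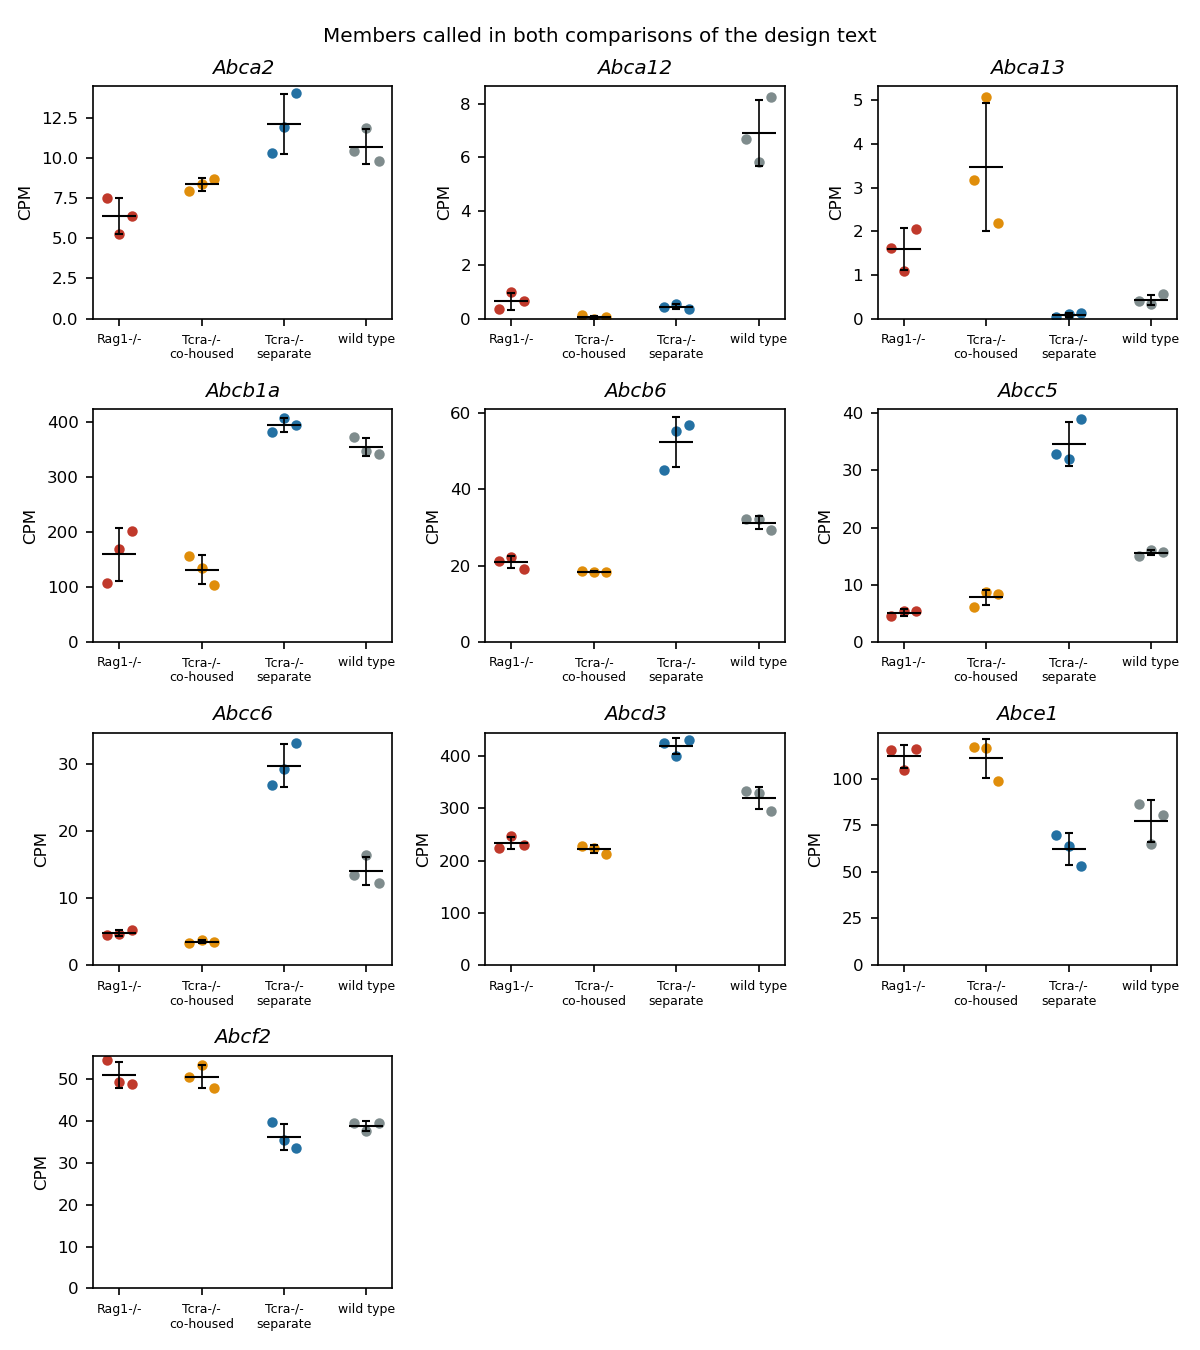
CPM per mouse of the 10 members called in both stated comparisons, with the group mean and SD as black bars (n = 3 mice per group, each axis from 0). Rag1-/- and co-housed mice lie under separately housed and wild type mice for Abcb1a, Abcb6, Abcc5, Abcc6 and Abcd3, and above them for Abca13, Abce1 and Abcf2.

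Subfamily D, the peroxisomal importers with 1 lysosomal relative, was led by Abcd3. Of 4 tested members, 1 fell in Rag1-/- mice and 2 fell with housing, and 0 rose. Abcd3 (mm9 chromosome 3, 121461828 to 121518133, minus strand) had 224, 246 and 229.8 CPM in Rag1-/- mice, 228, 224 and 213 CPM in co-housed Tcra-/- mice, 425, 401 and 429.9 CPM in separately housed Tcra-/- mice and 333, 329.9 and 295 CPM in wild type mice. All separately housed mice were above all wild type mice, and all wild type mice above the other 6. It fell 1.37-fold in Rag1-/- relative to wild type mice (-0.45, SE 0.07, adjusted p = 0.000104) and 1.89-fold in co-housed relative to separately housed mice (-0.92, SE 0.07, adjusted p = 3.5e-08). Abcd4, which takes part in the exit of cobalamin from lysosomes, had 25.7, 25.1 and 23.9 CPM in Rag1-/- mice, 19.2, 19.6 and 20.1 CPM in co-housed Tcra-/- mice, 30.9, 28.4 and 32.7 CPM in separately housed Tcra-/- mice and 25.5, 28.6 and 23.9 CPM in wild type mice. It fell with housing (-0.64, SE 0.08, adjusted p = 1.2e-05) and overlapped between Rag1-/- and wild type mice (-0.06, SE 0.08, adjusted p = 0.615). Abcd2, another peroxisomal importer, was at -0.80 for housing (adjusted p = 0.0192).

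Subfamily A, large transporters of lipids, held the widest fold changes, at low levels. Of 12 tested members, 2 fell and 1 rose in Rag1-/- mice, and 5 fell and 1 rose with housing. Abca12 (mm9 chromosome 1, 71289664 to 71461484, minus strand), which loads glucosylceramide into lamellar granules in skin, had 0.343, 0.972 and 0.640 CPM in Rag1-/- mice, 0.114, 0 and 0.0495 CPM in co-housed Tcra-/- mice, 0.439, 0.536 and 0.350 CPM in separately housed Tcra-/- mice and 6.68, 5.82 and 8.25 CPM in wild type mice. Wild type mice stood apart from all 9 others, and co-housed mice were the lowest, on 6 reads in all. Abca12 fell 10.6-fold in Rag1-/- relative to wild type mice (-3.40, SE 0.33, adjusted p = 1.1e-06). For housing its log2 fold change was -3.05 (SE 0.63, adjusted p = 0.000741), and it was -4.06 without mouse TCRaCox3155 and -2.41 without mouse TCRaCox3156. Abca13 (mm9 chromosome 11, 9091945 to 9584262, plus strand), the longest member by exon bases, had 1.62, 1.09 and 2.05 CPM in Rag1-/- mice, 3.17, 5.08 and 2.18 CPM in co-housed Tcra-/- mice, 0.0439, 0.0932 and 0.131 CPM in separately housed Tcra-/- mice and 0.405, 0.340 and 0.559 CPM in wild type mice. It rose 3.64-fold in Rag1-/- relative to wild type mice (1.86, SE 0.37, adjusted p = 0.00101) and 37.8-fold in co-housed relative to separately housed mice (5.24, SE 0.45, adjusted p = 1.4e-07), and separately housed mice had 12 reads of it in all. Co-housed mice were the highest, Rag1-/- mice next and separately housed mice the lowest, with no overlap among the 4 groups. Abca2, an endosomal and lysosomal lipid transporter, had 7.47, 5.24 and 6.38 CPM in Rag1-/- mice, 7.94, 8.39 and 8.69 CPM in co-housed Tcra-/- mice, 10.3, 11.9 and 14.0 CPM in separately housed Tcra-/- mice and 10.4, 11.9 and 9.79 CPM in wild type mice. It fell in Rag1-/- (-0.75, SE 0.15, adjusted p = 0.000904) and in co-housed mice (-0.53, SE 0.14, adjusted p = 0.00551), and the call for housing ended without mouse TCRaCox3155 (adjusted p = 0.0222), TCRaCox3156 (0.0182), TCRaSepxT3 (0.0139) or TCRaSepxT4 (0.0377).

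Abca8b, Abca8a, Abca9, Abca6 and Abca5 are neighbours on chromosome 11, and 2 of them were called for housing. Abca8b had 1.76, 1.4 and 2.82 CPM in Rag1-/- mice, 1.94, 2.65 and 3.0 CPM in co-housed Tcra-/- mice, 8.47, 12.1 and 9.89 CPM in separately housed Tcra-/- mice and 3.46, 2.58 and 3.38 CPM in wild type mice. Separately housed mice were above all others for this gene, and Rag1-/- and co-housed mice overlapped with wild type mice. It fell 3.99-fold in co-housed relative to separately housed mice (-2.0, SE 0.23, adjusted p = 3.9e-06) and was at -0.65 for Rag1-/- (adjusted p = 0.0534, and 0.00605 without mouse RAG1x3168). Its neighbour Abca8a fell with housing to 5.07 ± 0.530 CPM, against 9.24 ± 0.960 CPM in separately housed mice (-0.86, SE 0.20, adjusted p = 0.00187), and was not called without mouse TCRaCox3155 (adjusted p = 0.0104). Abca8b took 29.8 to 37.5% of the reads of both genes in co-housed mice and 46.7 to 54.9% in separately housed mice, and reads of such paralogs can be assigned to either. Abca9, Abca6 and Abca5 were not called for housing (-0.18, SE 0.28, adjusted p = 0.624 for Abca9, -0.80, SE 0.49, adjusted p = 0.182 for Abca6 and -0.45, SE 0.18, adjusted p = 0.0519 for Abca5), and differences between these neighbours were not tested. Summed smooth muscle markers were 2507 to 3992 CPM in co-housed and 3914 to 4288 CPM in separately housed mice, with 0 higher and 2 lower of 8 called, and their part in these results was not tested. Abca3, the phospholipid transporter of lung lamellar bodies, fell with housing to 47.1 ± 5.71 CPM, against 77.9 ± 9.77 CPM in separately housed mice (-0.72, SE 0.12, adjusted p = 0.000101), and was at -0.37 for Rag1-/- (adjusted p = 0.0238). It shares 691 exon bases with a gene on the opposite strand. Abca7, a relative of Abca1 in phagocytes and other cells, overlapped between the groups of both stated comparisons, with log2 fold changes of 0.09 for Rag1-/- and 0.10 for housing. Of the uncalled members of subfamily A, Abca14, Abca4, Abca5, Abca6, Abca7 and Abca9, housing log2 fold changes ran from -0.80 to 0.33.

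The soluble members, which act on ribosomes, were higher in Rag1-/- and co-housed mice where they were called, namely Abce1 and 1 of 3 members of subfamily F. Abce1 (mm9 chromosome 8, 82207341 to 82235639, minus strand), which splits ribosomes after termination, had 115, 105 and 116 CPM in Rag1-/- mice, 117, 117 and 98.8 CPM in co-housed Tcra-/- mice, 69.6, 64.0 and 53.1 CPM in separately housed Tcra-/- mice and 86.7, 64.7 and 80.3 CPM in wild type mice. It rose in Rag1-/- (0.54, SE 0.11, adjusted p = 0.00213) and in co-housed mice (0.83, SE 0.11, adjusted p = 2.7e-05). Abcf2, a relative of the translation factor Abcf1, had 54.6, 49.4 and 49.0 CPM in Rag1-/- mice, 50.5, 53.4 and 47.9 CPM in co-housed Tcra-/- mice, 39.8, 35.4 and 33.6 CPM in separately housed Tcra-/- mice and 39.6, 37.6 and 39.5 CPM in wild type mice, and rose in Rag1-/- (0.39, SE 0.08, adjusted p = 0.00114) and in co-housed mice (0.48, SE 0.08, adjusted p = 9.2e-05). Under library size alone, the calls for Rag1-/- ended for Abce1 (log2 fold change 0.37, adjusted p = 0.0288) and for Abcf2 (0.22, 0.0567), with the same direction. Abcf1, with 113, 107 and 112 CPM in Rag1-/- mice, 109.8, 110.0 and 109 CPM in co-housed Tcra-/- mice, 92.8, 96.5 and 106 CPM in separately housed Tcra-/- mice and 96.0, 108 and 96.6 CPM in wild type mice, was called in neither stated comparison, nor was Abcf3 (0.04 for Rag1-/- and 0.13 for housing). Summed crypt and cycling cell markers were 822 to 848 CPM in Rag1-/- mice, 897 to 1148 CPM in co-housed mice, 429 to 818 CPM in separately housed mice and 557 to 862 CPM in wild type mice. Of the 8 listed, 1 higher and 0 lower of 8 were called for Rag1-/- and 4 higher and 0 lower of 8 for housing, and their part in the levels of Abce1 and Abcf2 was not tested.

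Subfamily G held the most abundant member and 2 members that followed another order. Of 4 tested members, 0 were called for Rag1-/-, and 2 rose and 0 fell with housing. Abcg2 had 463, 479.5 and 497 CPM in Rag1-/- mice, 516, 420.4 and 452 CPM in co-housed Tcra-/- mice, 456, 374 and 405 CPM in separately housed Tcra-/- mice and 511, 491 and 456 CPM in wild type mice. Its groups overlapped in both stated comparisons, with log2 fold changes of -0.02 for Rag1-/- (SE 0.09, adjusted p = 0.898) and 0.17 for housing (SE 0.09, adjusted p = 0.120). Abcg1, which exports cholesterol from macrophages, had 3.33, 1.90 and 2.97 CPM in Rag1-/- mice, 4.66, 6.38 and 3.42 CPM in co-housed Tcra-/- mice, 1.89, 2.26 and 2.84 CPM in separately housed Tcra-/- mice and 4.45, 4.96 and 5.63 CPM in wild type mice. It rose with housing (1.05, SE 0.25, adjusted p = 0.00208), which was not called without mouse TCRaCox3156 (adjusted p = 0.0159) or TCRaSepxT2 (0.0138), and in Rag1-/- relative to wild type mice it was at -0.88 (adjusted p = 0.0111, and 0.00269 by DESeq2). Abcg3, a rodent relative of Abcg2, had 6.07, 4.41 and 5.36 CPM in Rag1-/- mice, 6.57, 9.01 and 6.88 CPM in co-housed Tcra-/- mice, 5.66, 4.24 and 3.87 CPM in separately housed Tcra-/- mice and 8.16, 6.55 and 8.65 CPM in wild type mice. It rose with housing (0.71, SE 0.18, adjusted p = 0.00402), which was not called without mouse TCRaCox3156 (adjusted p = 0.0261), TCRaSepxT3 (0.0189) or TCRaSepxT4 (0.0253) and with library size alone (0.0150). For Rag1-/- Abcg3 was at -0.56 (adjusted p = 0.0254). Abcg4, a cholesterol exporter of brain, was called in neither (0.10 for Rag1-/- and 0.15 for housing). Summed myeloid markers were 185 to 204 CPM in Rag1-/-, 232 to 365 CPM in co-housed, 119 to 154 CPM in separately housed and 216 to 262 CPM in wild type mice, with 1 higher and 0 lower of 9 called for Rag1-/- and 8 higher and 0 lower of 9 for housing. Summed B cell markers were 129 to 185 CPM in co-housed and 60.3 to 103 CPM in separately housed mice, and the part of these cells in the levels of Abcg1, Abcg3 and Abcb1b was not tested.

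**Figure D4:**
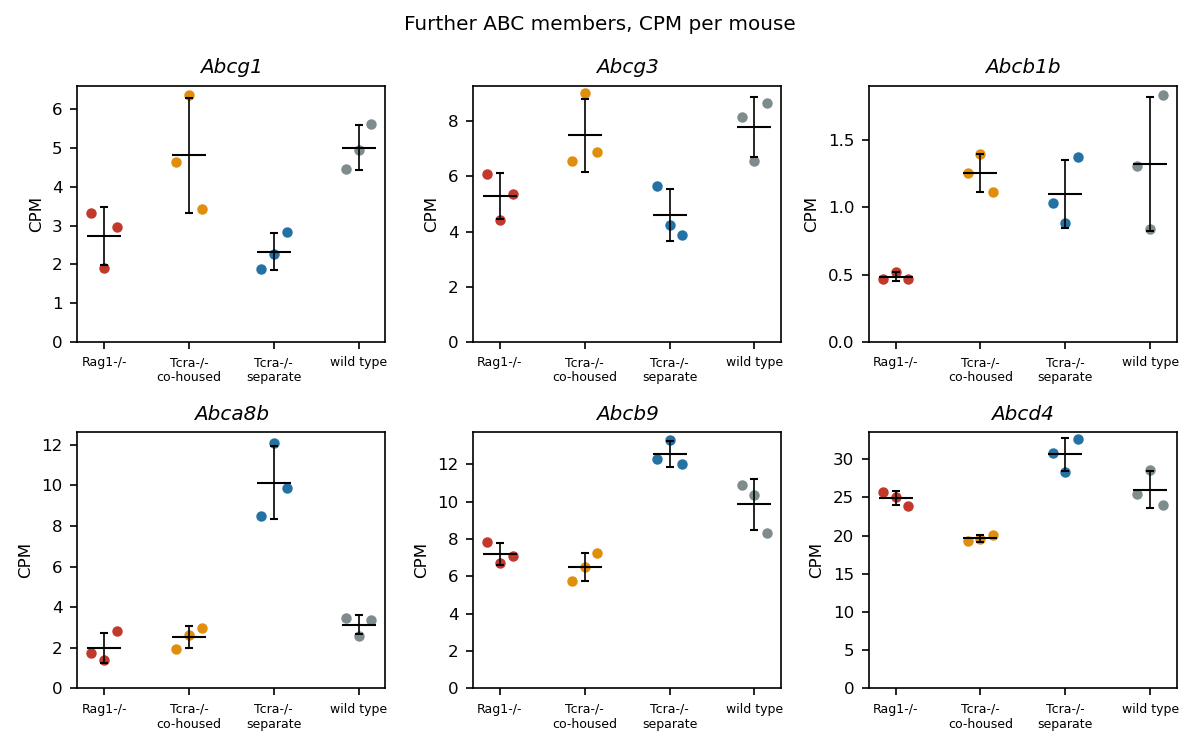
CPM per mouse of Abcg1, Abcg3, Abcb1b, Abca8b, Abcb9 and Abcd4, with the group mean and SD as black bars (n = 3 mice per group, each axis from 0). Separately housed mice have the highest mean for Abca8b, Abcb9 and Abcd4 and the lowest for Abcg1 and Abcg3.

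**Figure D5:**
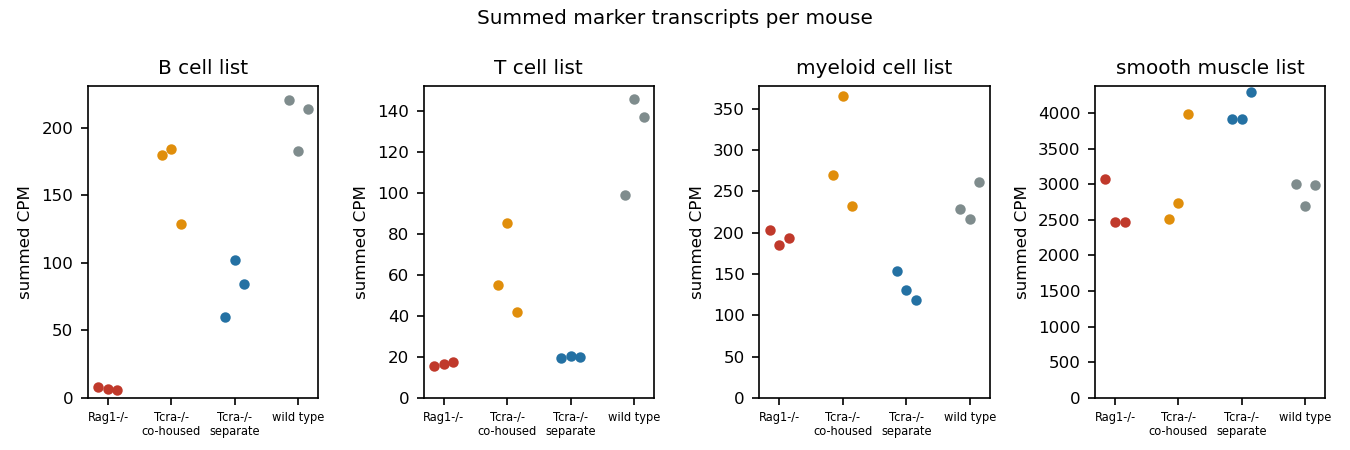
Summed CPM per mouse of the B cell, T cell, myeloid cell and smooth muscle marker lists in the 4 groups, 1 point per mouse. The Rag1-/- mice are the lowest for B cell markers, and the separately housed mice are the lowest for myeloid markers.

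Each Tcra-/- group was also set against wild type mice, the same 3 mice that serve the Rag1-/- comparison. In co-housed relative to wild type mice 8 members fell and 5 rose, or 33.3% of tested members beside 18.5% of all genes (9.19% lower, 9.34% higher). In separately housed relative to wild type mice 4 fell and 5 rose, or 23.1% beside 13.8% of all genes (7.70% lower, 6.06% higher). Abcc6 was at -2.0 in co-housed and 1.08 in separately housed mice, Abcc5 at -1.0 and 1.15, Abcb6 at -0.76 and 0.75 and Abcd3 at -0.53 and 0.39, all 8 of them called. These 4 genes were thus lower than wild type in one Tcra-/- group and higher in the other. Abca13 went the other way, called higher in co-housed mice (2.99, SE 0.36, adjusted p = 1.6e-05) and lower in separately housed mice (-2.25, SE 0.54, adjusted p = 0.00622). That lower call, on 12 reads in separately housed mice, ended without each of those mice in turn and without WTB6x3159 or WTB6x3167. Abca12 was lower than wild type in both, at -7.01, on 6 reads in co-housed mice, and at -3.96. Abcb1a fell in co-housed mice (-1.43, SE 0.21, adjusted p = 0.000526) and was not called in separately housed mice (0.16, SE 0.20, adjusted p = 0.618). Abcg1 and Abcg3 fell in separately housed mice (-1.11 and -0.76) and were not called in co-housed mice (-0.06 and -0.05). In separately housed mice Abcg1 was not called without mouse TCRaSepxT2 (adjusted p = 0.0217), TCRaSepxT3 (0.0168), WTB6x3160 (0.0118) or WTB6x3167 (0.0175). Abcg3 was not called there without TCRaSepxT3 (adjusted p = 0.0274), TCRaSepxT4 (0.0385), WTB6x3159 (0.0232) or WTB6x3167 (0.0283).

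The effects of Rag1-/- and of housing differed in size for 8 of 39 members by a test of the difference itself, beside 12% of all genes. Abcc6, Abcb6 and Abcd3 fell in both comparisons and fell more with housing, and Abca13 rose in both and rose more with housing. Abcd4 and Abca8b fell with housing and were not called for Rag1-/-. Abcg1 and Abcg3 rose with housing and had negative, uncalled log2 fold changes for Rag1-/-. For Abcc5 the difference did not pass (0.55, SE 0.18, adjusted p = 0.0436), nor for Abcb1a (0.44, SE 0.29, adjusted p = 0.334).

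Genes that work with the family are given from lists chosen for their known roles. Counts called on these and on the cell type lists stand beside 20.9% of all genes tested for Rag1-/- and 38.8% for housing. Of 8 ABC proteins outside the rule, 0 higher and 2 lower of 8 were called for Rag1-/- and 2 higher and 3 lower of 8 for housing. The conjugate exporter Abcc2 was at -1.45 and -3.36, and the sterol exporter subunit Abcg8 at -0.55 and -0.93. The peptide transporter subunits Tap1 and Tap2 were higher in co-housed than in separately housed mice (3.13 and 1.42), as was their partner Tapbp (0.50). Relative to wild type mice, Tap1 and Tap2 were called lower in separately housed mice (-2.48 and -1.19). In co-housed mice they were not called against wild type (0.65 and 0.22). Of 17 nuclear receptors and factors, 1 higher and 3 lower of 17 were called for Rag1-/- and 1 higher and 8 lower of 17 for housing. Ppara, the fatty acid sensor, was lower in both (-0.62 and -1.59), as was the vitamin D receptor Vdr (-0.41 and -0.89), while Ppard was higher in both (0.76 and 0.77). Nr1i3, the xenobiotic receptor CAR, fell with housing (-1.68, SE 0.24, adjusted p = 4.9e-05).

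Among 14 scaffold, channel and translation partners, 3 higher and 4 lower of 14 were called for Rag1-/- and 4 higher and 3 lower of 14 for housing. Pdzk1, a scaffold of apical transporters, was lower in both (-1.58 and -2.22), as was the membrane linker Ezr (-0.48 and -0.56). Eif2s1, a translation initiation factor, and the chaperone Ptges3 were higher in both (0.39 and 0.37 for Rag1-/-, 0.62 and 0.76 for housing), and the lysophospholipid transporter Mfsd2a, also on this list, was at 3.04 and 2.03. Of 19 tested conjugation enzymes, which make substrates for the exporters, 0 higher and 11 lower of 19 were called for Rag1-/- and 0 higher and 14 lower of 19 for housing. The glucuronosyltransferase Ugt2b5 was at -1.56 and -2.05, and Gclm, of glutathione synthesis, at -0.93 and -1.57.

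Markers of the enterocyte, the cell that carries most apical exporters, moved in the same comparisons. Their sum was 33503 to 37727 CPM in Rag1-/-, 33963 to 38732 CPM in co-housed, 42753 to 48377 CPM in separately housed and 39387 to 42145 CPM in wild type mice, with 1 higher and 6 lower of 16 called for Rag1-/- and 1 higher and 8 lower of 16 for housing. Fabp6 and Slc10a2, which mark ileum, were not called for Rag1-/- (-0.20 and 0.32). The part of enterocyte share in the falls of Abcc5, Abcc6, Abcb1a, Abcb6 and Abcd3 was not tested. On the other cell type lists, for housing, goblet had 1 higher and 3 lower of 6, Paneth 1 higher and 0 lower of 7, tuft 0 higher and 4 lower of 5, enteroendocrine 0 higher and 5 lower of 9, plasma 4 higher and 1 lower of 6, T cell 10 higher and 0 lower of 12 and B cell 6 higher and 0 lower of 10 called. Fibroblast had 0 higher and 0 lower of 7, endothelium and pericyte 0 higher and 0 lower of 10, enteric neuron and glia 1 higher and 2 lower of 10 and adipocyte 0 higher and 0 lower of 5. For Rag1-/- the same lists had, for goblet 0 higher and 1 lower of 6, Paneth 1 higher and 0 lower of 7, tuft 0 higher and 2 lower of 5, enteroendocrine 0 higher and 3 lower of 9, plasma 1 higher and 4 lower of 6, T cell 0 higher and 12 lower of 12 and B cell 0 higher and 10 lower of 10. Fibroblast had 0 higher and 0 lower of 7, smooth muscle 0 higher and 0 lower of 8, endothelium and pericyte 0 higher and 0 lower of 10, enteric neuron and glia 1 higher and 0 lower of 10 and adipocyte 0 higher and 0 lower of 5.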

How the data were processed

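Per the submitters' processing notes, the authors used TopHat2 (2.0.11) on Bowtie2 (2.2.2.0) with build mm9, and featureCounts from Subread (1.4.5-p1) for counting. The deposited values are raw counts with no normalization, per the file headers. The deposited table also gives each gene's merged exon length, used here for levels per kilobase. The sources read state no annotation, strand setting or handling of reads with several matches. Coordinates are mm9 as deposited, and upstream sequences are from RefSeq (GRCm38.p6). filterByExpr of edgeR 4.0.16 (R 4.3.3) kept 15866 genes, and a robust quasi-likelihood model with TMM factors (0.926 to 1.07) and 1 term per group was fitted to all 12 libraries, with 8 residual degrees of freedom. Contrasts were tested two-sided. Alternatives were DESeq2 1.42.0, other scalings, filters and thresholds, no robust dispersion, only the groups compared, and each mouse left out. The test was checked on simulated data with 200 changed genes, as many up as down. These are far fewer than the genes called here, so that check does not cover a comparison with so many changes. Replicates are separate mice with no pairing in the labels, and the tests measure the spread among them. Values per mouse are given for up to 12 members per stated comparison with the smallest adjusted p, up to 5 with the highest level per length, up to 5 called only in a Tcra-/- group against wild type and up to 6 whose effects differed. The members and lists were chosen with earlier results of these data known. Results of some single genes are not reported here, and counts and sums over lists include them.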

Additional observations from a re-analysis of the deposited data

Results flagged for a closer look

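For 8 members the effect of Rag1-/- over wild type differed from the effect of co-housed over separately housed Tcra-/- mice by the edgeR quasi-likelihood test of that difference. Values here are the log2 effect of Rag1-/- minus the log2 effect of housing. Among members that fell in both comparisons, the difference was 1.53 for Abcc6 (SE 0.18, adjusted p = 1.5e-05), 0.93 for Abcb6 (SE 0.13, adjusted p = 8.2e-05) and 0.47 for Abcd3 (SE 0.10, adjusted p = 0.00258). For Abca13, which rose in both, it was -3.38 (SE 0.62, adjusted p = 0.00100). Abcg1 and Abcg3 had effects of opposite sign, with differences of -1.93 (SE 0.35, adjusted p = 0.000840) and -1.27 (SE 0.26, adjusted p = 0.00206). Both rose with housing, and their negative effects for Rag1-/- were not called. Abcd4 and Abca8b fell with housing and were not called for Rag1-/-, with differences of 0.58 (SE 0.12, adjusted p = 0.00240) and 1.35 (SE 0.34, adjusted p = 0.00907). The call for Abcd3 ended without mouse RAG1x3164 (adjusted p = 0.0104). The call for Abca8b ended without 9 of the 12 mice in turn, with adjusted p up to 0.0339 without mouse RAG1x3168, and with library size alone (0.0124) or without robust dispersion (0.0115).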

How the results depend on the processing

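No direction of a named member reversed in the stated comparisons or in their difference where the main or the alternative run called it. Changes of sign where neither run called the member were not counted. The difference of the effects was not fitted with DESeq2 or with only the groups compared. For Rag1-/- over wild type, 3 members higher became 5 at an adjusted p under 0.05, 5 with only the 6 libraries compared, 5 by DESeq2 and 1 with library size alone, and 8 lower became 13 with library size alone. The cause was not tested. Leaving out each mouse gave 3 higher each time and 8 to 9 lower there, and 5 to 7 higher and 11 to 13 lower for housing. For co-housed over wild type, 5 higher became 1 with library size alone and 2 to 4 without 1 mouse each (3 without TCRaCox3155, TCRaCox3156, TCRaCox3157 or WTB6x3159, 2 without WTB6x3160), and 8 lower became 6 to 10. For separately housed over wild type, 5 higher became 8 at an adjusted p under 0.05 and stayed at 5 without any 1 mouse, and 4 lower became 1 to 3 (2 without TCRaSepxT2, TCRaSepxT4 or WTB6x3159, 1 without TCRaSepxT3 or WTB6x3167). For the difference of the effects, 3 lower became 5 at an adjusted p under 0.05 and 3 to 5 without 1 mouse (5 without WTB6x3160), and 5 higher became 4 to 6. No paired analysis was possible because the labels give no numbers shared between groups. Depth limits Abca4, Abca6 and Abcb11, which had 86, 162 and 70 reads over the 12 libraries.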
